A study of Mus musculus with 96 samples.

Results

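Pancreatic islets of mice kept on a high-fat diet (HFD) were sequenced after 4, 8, 12, 16, 20 and 24 weeks, and the 24 libraries from these islets, out of 96 in the series, are described here as a time course. The members were all HFD islet columns of the deposited expression table, with 4 mice at each week. The animals were male C57BL/6N mice bought at an age of 4 weeks, and the HFD (Research Diets D12492) was labelled as 60% fat. The other 24 islet libraries came from mice on a chow diet (CD, LabDiet 5001, 13.5% fat) for the same weeks and are used only for comparison. Nothing in the labels sets one HFD mouse apart from another in genotype or drug, and each mouse was sampled once, so a change with time is a difference between groups of mice. The weeks on diet, the age of the mice and the collection are the same variable within the HFD group and cannot be told apart there. Islets were released with collagenase P, enriched on a density gradient and picked by hand, so each library is bulk RNA of all islet cells plus whatever exocrine tissue came along.

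Islets are clusters of endocrine cells: beta cells make insulin, alpha cells glucagon, delta cells somatostatin and PP cells pancreatic polypeptide. Under a lasting fat-rich diet mouse islets are known to enlarge, mainly through beta cells, and to secrete more insulin as the body becomes less sensitive to it. The label was checked against these hormones: Ins2, Ins1 and Iapp held ranks 1, 2 and 3 by mean FPKM (fragments per kilobase of transcript, scaled to the library total) over the HFD libraries, Gcg rank 6, Ppy rank 13 and Sst rank 14. Both insulin genes took 62.6% to 75.1% of the summed FPKM of a HFD library, and 11059 to 11738 genes reached 1 FPKM. Profiles correlated at 0.979 to 0.995 between mice of a week (36 pairs) and no libraries were identical. The read counts behind the values were not used here, so counting error is unknown. One library stood apart: mouse 1 of week 20 had a summed level of the 10 alpha cell markers of 5319 FPKM, against 1860 to 2453 in the other mice of that week. Some results are given with and without it. Among the genes named here, leaving it out added 2 calls and removed 1 in the trend over the HFD weeks. It added 13 calls in the difference of that trend from CD islets, and these genes are not all named.

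Over the weeks, the genes of the non-beta endocrine cells fell and a set of low-abundance genes rose. Among the latter were Cxcr4, Barhl1, P3h2, Slc35f4 and Cpne4. All but Barhl1 belong to the genes that the study singled out on these samples. Barhl1 and Slc35f4 reached 1 FPKM in no library of week 4 and so entered the test through later weeks. Larger fitted rises, such as those of Reg2, Mt2 and Snhg11, are described below. The trend is the change from week 4 to week 24 of a straight line through the weekly means of log2(FPKM + 1). Of 12014 genes tested with limma, 5644 rose (47.0%) and 934 fell (7.77%) at an adjusted p under 0.05. The median change of all genes was 0.18 on this scale. FPKM is relative to the total of a library, most of which was insulin here. When the libraries were scaled to a median ratio instead, the median became 0.01 and the split 3047 (25.4%) higher against 2651 (22.1%) lower. All 934 falls were also called under that scaling, whereas of the 5644 rises 3045 were. Weeks 24 and 4 compared directly gave 3891 rises (32.4%) and 1220 falls (10.2%), and 3812 rises and 774 falls were called in both tests. Since the weeks were collected separately, the trend was also fitted to the 6 weekly means as single units: 31 genes (0.258%) then rose and 27 (0.225%) fell, all of them called in the first fit too. Some genes below that stand in this smaller set are named as such, and for some lists only their number is given. A gene without such a remark may still belong to it.

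Glucagon, somatostatin and pancreatic polypeptide are the hormones of alpha, delta and PP cells, which counter or restrain insulin. Their genes lie on chromosome 2 (Gcg, chr2:62474530-62491679), chromosome 16 (Sst, chr16:23889581-23890844) and chromosome 11 (Ppy, chr11:102099931-102101300) of GRCm38, all on the minus strand. The promoters of Gcg (chr2:62483604-62483903) and Sst (chr16:23890795-23891094), 250 bases before to 50 after the start in RefSeq GRCm38.p6, are printed 5′ to 3′ on the minus strand because these genes moved together. Capitals mark the letters TATAAA on either strand in Gcg and the cAMP response element TGACGTCA in Sst. TATAAA is in 13.6% of 32851 promoters and TGACGTCA in 1.79%, both searched on both strands.
Gcg: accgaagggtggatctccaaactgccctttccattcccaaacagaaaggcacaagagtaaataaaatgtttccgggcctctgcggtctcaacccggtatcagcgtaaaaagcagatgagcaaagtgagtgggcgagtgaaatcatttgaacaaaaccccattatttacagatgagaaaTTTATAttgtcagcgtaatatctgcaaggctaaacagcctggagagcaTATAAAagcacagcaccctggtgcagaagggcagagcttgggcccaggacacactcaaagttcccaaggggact
Sst: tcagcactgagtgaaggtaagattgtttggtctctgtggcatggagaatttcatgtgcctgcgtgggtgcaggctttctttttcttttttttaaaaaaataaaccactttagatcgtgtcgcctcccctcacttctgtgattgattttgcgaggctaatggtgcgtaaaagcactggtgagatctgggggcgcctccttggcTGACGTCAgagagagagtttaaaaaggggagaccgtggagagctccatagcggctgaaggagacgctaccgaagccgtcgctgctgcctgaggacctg
In Gcg the match nearest the start begins 24 bases before it, and in Sst the element begins 48 bases before the start. The matches describe letters and say nothing of what happened at these sites.

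Gcg FPKM in the 4 HFD mice was 13106, 13595, 11752 and 14280 at week 4, then 7077, 8540, 6071 and 9324 at week 8 and 4297, 4874, 4158 and 5907 at week 12. It was 2098, 1659, 2190 and 3596 at week 16, 4630, 1914, 1460 and 1726 at week 20, and 950, 1026, 1493 and 1961 at week 24. The levels of weeks 4, 8 and 12 did not overlap with one another, every mouse of week 24 was below every mouse of week 12, and weeks 16, 20 and 24 overlapped. The mean fell 9.71-fold from week 4 (13183 ± 1069, SD, n = 4) to week 24 (1358 ± 468), with a trend of -3.31 ± 0.26 (SE, adjusted p = 1.2e-08, limma). In CD islets the mean went from 14571 ± 456 to 10209 ± 2592, a trend of -0.56 (adjusted p = 0.028). The trends differed by -2.75 between the diets (adjusted p = 3.1e-08), and Gcg passed with weekly means as units in both tests. Without mouse 1 of week 20 the HFD trend was -3.47. In bulk tissue, fewer cells of a type and less RNA per cell cannot be told apart.

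Sst FPKM lay between 3774 and 3917 in the 4 mice of week 4 and was 321, 339, 361 and 615 at week 24. The week means were 3850 ± 59.6, 2156 ± 476, 1650 ± 289, 679 ± 287, 943 ± 523 and 409 ± 138 (SD, n = 4 each). The HFD trend was -3.10 ± 0.27 (adjusted p = 3.9e-08) and differed by -2.48 from that of CD islets (adjusted p = 9.1e-08), where means of 4489 and 2520 stood at the ends. Ppy FPKM was 4462, 3772, 3950 and 4839 at week 4 and 345, 535, 300 and 680 at week 24, 9.15-fold lower in the mean, with a trend of -3.06 ± 0.33 (adjusted p = 6.3e-07). Pyy, the related peptide YY gene, went from 1767 ± 69.3 to 279 ± 73.3 with a trend of -2.63. Both fell further in HFD than in CD islets (Ppy by -2.12, Pyy by -2.42 in the trend). Expressed per Ins2, which removes the total, Gcg was 2.17 ± 0.268% of Ins2 FPKM at week 4 and 0.282 ± 0.0985% at week 24 in HFD islets. The CD values were 2.66 ± 0.195% and 2.15 ± 0.764%. Together Gcg, Sst, Ppy and Pyy took 2.00 ± 0.162% of all FPKM at week 4 and 0.246 ± 0.0717% at week 24 of the HFD, and 2.32 ± 0.125% and 1.60 ± 0.421% on chow.

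**Figure D1:**
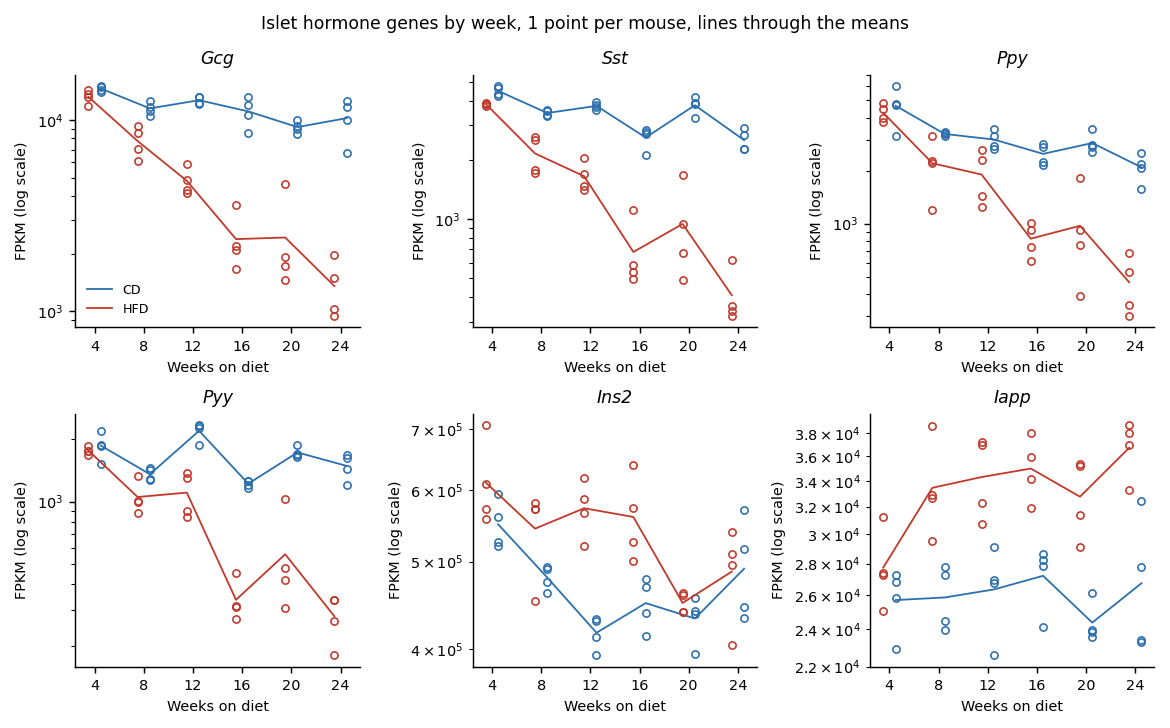
FPKM of 6 hormone genes (log scale) against weeks on diet, with 1 circle per mouse and lines through the weekly means, HFD in red and CD in blue. Gcg, Sst, Ppy and Pyy dropped in HFD islets from means of 13183, 3850, 4256 and 1767 FPKM at week 4 to 1358, 409, 465 and 279 at week 24, while Ins2 and Iapp had trends of -0.35 and 0.28.

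The transcription factors and other markers of these cells fell with their hormones. Of 10 alpha cell markers 8 fell and none rose in the HFD trend (all genes tested: 7.77% fell), with a list median of -1.56, and 7 fell further than in CD islets (all genes: 1.19%). Irx1, a transcription factor of alpha cells, went from 6.34 ± 1.01 to 0.782 ± 0.157 FPKM. Irx2 (trend -1.47), Fev (-1.65), the thyroxine carrier Ttr (-1.65) and the glutamine transporter Slc38a5 (-1.36) fell as well. The other 2 of the list were not called: Gc, the vitamin D binding protein, had a trend of -0.05 (adjusted p = 0.82) and the arginine transporter Slc7a2 one of 0.13 (adjusted p = 0.44).

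Of 7 delta cell markers 5 passed the filter on low values, and these 5 fell in HFD islets (all genes tested: 7.77%) and fell further than on chow (1.19%). One of them, Ghsr, reached 1 FPKM in no library of week 24 and so entered the test through the earlier weeks. Lepr, the leptin receptor, was not tested and had means of 0.505 FPKM at week 4 and 0.812 at week 24. Over all 7 the mean was lower at week 24 than at week 4 in 6, against 35.8% of the 20155 genes with values. Rbp4, the retinol carrier, was 76.3, 76.7, 77.0 and 80.6 FPKM at week 4 and 8.14, 5.98, 10.1 and 18.0 at week 24, with a trend of -2.79 (adjusted p = 8.8e-08) in HFD and -0.39 (adjusted p = 0.10) in CD islets. Hhex, the transcription factor that maintains delta cells, fell from 3.73 ± 1.31 to 1.06 ± 0.495 FPKM and Ghsr, the ghrelin receptor, from 0.912 ± 0.271 to 0.155 ± 0.0957. The 3 PP cell genes fell too, among them Npy from 8.61 ± 2.64 to 0.325 ± 0.306 FPKM. Npy, like Ghsr, reached 1 FPKM in no library of week 24 and so entered the test through the earlier weeks. With weekly means as units, 4 alpha, 3 delta and 2 PP cell markers were called in the HFD trend.

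Summed over the whole alpha cell list, the level was 12738 to 15394 FPKM in the mice of week 4 and 1375 to 2526 at week 24. The delta cell list summed to 3873 to 4012 at week 4 and 338 to 643 at week 24, and the PP cell list to 5545 to 6540 and 526 to 1015. Of 14 other islet peptide genes, which include these hormones, 10 fell and 2 rose (all genes: 7.77% and 47.0%). Of the 14, 3 reached 1 FPKM in no library of week 24 and so entered the test through earlier weeks. This count alone is therefore no support for a fall of the list. Of all 20 listed, tested or not, 15 had a lower mean at week 24 than at week 4 (all genes with values: 35.8%). Ghrelin (Ghrl) went from 6.74 ± 1.29 to 0.623 ± 0.364 FPKM and the neuropeptide Vip from 6.82 ± 5.02 to 0.258 ± 0.115. The Vip trend did not differ detectably between the diets (difference -1.41, adjusted p = 0.15). Ffar4, a long-chain fatty acid receptor found on delta and alpha cells, was 3.02, 3.67, 3.90 and 3.53 FPKM at week 4 and 0.31, 0.47, 0.32 and 0.58 at week 24. Its trend was -1.58 in HFD and -0.22 in CD islets, a difference of -1.36 (adjusted p = 2.0e-09). Ffar4 reached 1 FPKM in no library of week 24 and so entered the HFD test through the earlier weeks.

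Other genes among the largest falls are not markers fixed for these cells. Msln, encoding mesothelin, fell from 14.3 ± 3.32 to 0.642 ± 0.353 FPKM (trend -3.21, adjusted p = 2.5e-08). Gpx3, the secreted glutathione peroxidase, was 247, 239, 224 and 243 FPKM at week 4 and 36.3, 35.4, 47.3 and 45.2 at week 24, with no overlap (trend -2.64). Eef1a2, a translation elongation factor isoform, fell from 9.80 ± 0.885 to 1.33 ± 0.344 FPKM, and Arg1, arginase, from 12.6 ± 1.24 to 2.40 ± 0.769. All 4 fell further than in CD islets, by -2.49, -1.96, -1.55 and -1.30 in the trend. Tspan8, a tetraspanin on the ductal list, fell from 20.3 ± 2.11 to 5.37 ± 1.23 FPKM and differed by -1.48 between the diets.

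Beta cell genes had smaller trends. Ins2 FPKM at week 4 was 707231, 557825, 571536 and 608719, and at week 24 it was 509842, 496366, 404109 and 539761, so the groups did not overlap. Its trend was -0.35 ± 0.083 (adjusted p = 0.0011), and the difference from CD islets was -0.18 (adjusted p = 0.29). Ins1 ran from a mean of 212894 ± 27607 to 199328 ± 21014 with a trend of -0.15 (adjusted p = 0.17). The insulin genes Ins1 and Ins2 are similar in sequence, so reads may be shared between them. Iapp, the amylin gene, had 25059 to 31202 FPKM at week 4 and 33240 to 38714 at week 24, a trend of 0.28 (adjusted p = 0.0031) that fell to 0.09 (adjusted p = 0.46) under median ratio scaling. Of the 12 beta cell markers 4 rose and 2 fell (all genes: 47.0% and 7.77%), and with median ratio scaling none rose and 5 fell (all genes: 25.4% and 22.1%). None of the 12 differed in trend between the diets.

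Genes that mature proinsulin mostly fell. Of 19 genes for insulin, amylin and prohormone processing 11 fell and 4 rose (all genes: 7.77% and 47.0%), and 9 fell on chow (11.2%). With median ratio scaling 15 fell and none rose (all genes: 22.1% and 25.4%). Pcsk1, the convertase that makes the first cut in proinsulin, declined at every step with means of 188 ± 21.4, 165 ± 20.5, 142 ± 10.5, 129 ± 9.64, 109 ± 17 and 96.5 ± 7.6 FPKM. Its trend was -0.95 ± 0.086 (adjusted p = 5.7e-09) in HFD and -0.56 (adjusted p = 2.7e-06) in CD islets, a difference of -0.39 (adjusted p = 0.044). Cpe, the carboxypeptidase that trims the cut ends, fell from 1778 ± 26.9 to 1344 ± 80.6 FPKM and differed by -0.27 between the diets (adjusted p = 0.038). Neither difference was called with insulin left out of the total or with weekly means as units. Pcsk2 fell by 0.42 in HFD islets and its trend on chow was -0.44. Ero1b, which forms disulfide bonds in the endoplasmic reticulum, fell by 0.55. Scg2, a granule protein, had 2980 ± 234 FPKM at week 4 and 4623 ± 822 at week 24 and rose by 0.38, a change that was not called under median ratio scaling (adjusted p = 0.12).

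Of 19 beta cell transcription factors tested, 11 rose and none fell (all genes: 47.0% rose); with median ratio scaling 7 rose and 2 fell. Mlxipl, encoding the glucose-responsive factor ChREBP, was 37.2, 67.4, 48.0 and 61.7 FPKM at week 4 and 171, 108, 220 and 160 at week 24. The means jumped between collections (53.6, 114, 50.2, 124, 183 and 165) and did so in CD islets as well (69.0, 123, 53.2, 109, 144 and 118). Its trend was 1.60 in HFD islets and exceeded the CD trend by 0.80 (adjusted p = 0.033; 0.010 with weekly means as units, 0.058 with median ratio scaling). Neurod1 and Isl1, which maintain endocrine identity, rose by 0.84 and 0.88, and the corresponding CD trends were 0.45 and 0.44. Pax6 rose by 0.51. Nkx6-1 rose by 0.41, but not under median ratio scaling (0.22, adjusted p = 0.074). For Pdx1 and Mafa, regulators of the insulin genes, the trends were -0.02 (adjusted p = 0.92) and -0.05 (adjusted p = 0.89). Mafa was 167 ± 81.1 FPKM at week 4, 54.2 ± 19.8 at week 8 and 96.7 ± 18.5 at week 24.

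Genes of glucose entry and secretion were mixed. The glucose transporter gene Slc2a2 had 234 ± 28.2 FPKM at week 4 and 150 ± 49.3 at week 24, lower in that pair of weeks (adjusted p = 0.023) but not called as a trend (-0.44, adjusted p = 0.067). Leaving out mouse 1 of week 20 brought the Slc2a2 trend to -0.52, past the threshold. Abcc8, the sulfonylurea receptor, rose from 236 ± 16.9 to 335 ± 46.7 FPKM. Gipr, a receptor for the incretin hormone GIP, rose by 0.82, and the Glp1r trend was 0.31 (adjusted p = 0.11). Kcnk16, a potassium channel of islet cells, fell by 0.80 and Syt5, a synaptotagmin, by 1.00. Among 26 genes of glucose uptake and glycolysis 4 rose and 6 fell, among 23 channel genes 8 rose and 6 fell, and among 19 exocytosis genes 6 rose and 4 fell, against 47.0% and 7.77% of all genes. Median ratio scaling moved the glycolysis list to 1 up and 19 down, where the shares of all genes were 25.4% and 22.1%.

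Aldh1a3, a retinaldehyde dehydrogenase used as a marker of beta cells that lose identity, was already high by week 12. It was 1.52, 3.41, 3.05 and 2.05 FPKM at week 4, 16.6, 7.22, 12.1 and 3.50 at week 8 and 24.7, 16.2, 24.9 and 25.8 at week 12. At week 16 the values were 32.5, 22.1, 20.2 and 23.2, at week 20 they were 6.28, 21.0, 16.8 and 13.5, and at week 24 they were 15.6, 62.4, 24.6 and 18.6. From week 8 every HFD mouse exceeded every week 4 mouse, and weeks 12 to 24 overlapped. The trend was 2.38 ± 0.36 (adjusted p = 2.8e-05), and weeks 12 and 16 lay above the ends by 1.21 (adjusted p = 0.014). CD weekly means ran from 1.17 to 2.90 FPKM, and the trends differed by 1.88 (adjusted p = 0.0056). With weekly means as units neither the HFD trend (adjusted p = 0.28) nor the difference (0.42) was called. The rest of the list of dedifferentiation and disallowed genes did not go the same way: of 11 tested, Aldh1a3 alone rose and 3 fell (all genes: 47.0% and 7.77%). Those 3 were the intermediate filament gene Vim (13.6 ± 5.53 to 6.42 ± 0.596 FPKM), the low-Km hexokinase Hk1 (2.58 ± 0.541 to 1.50 ± 0.192) and the acyl-CoA thioesterase Acot7 (trend -0.64). Ldha was called neither way (-0.39, adjusted p = 0.28).

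Several genes of low abundance rose, some of them at every step. Cxcr4, the receptor of the chemokine CXCL12 (chr1:128588199-128592311, minus strand), was 0.98, 2.13, 0.93 and 1.24 FPKM at week 4, then 2.23, 1.24, 2.29 and 1.30, then 3.58, 3.51, 4.05 and 3.22 at week 12. It was 6.15, 5.74, 6.30 and 3.32 at week 16, 4.67, 7.66, 7.60 and 6.97 at week 20 and 9.52, 14.5, 9.54 and 7.85 at week 24. Weeks 4 and 8 overlapped, and every mouse from week 12 on was above them. The trend was 2.33 ± 0.16 (adjusted p = 4.9e-10), against 1.05 in CD islets, where the mean rose from 1.31 to 3.85 FPKM. The difference was 1.28 (adjusted p = 0.0011), and Cxcr4 passed with weekly means as units in both tests. The chemokine gene Cxcl12 itself fell, from 3.40 ± 2.7 to 0.917 ± 0.0763 FPKM, with no difference called between the diets (-0.67, adjusted p = 0.15). Ackr3, another receptor of CXCL12, rose from 1.75 ± 0.522 to 4.42 ± 1.47 FPKM, while the CD trend was -0.26 (adjusted p = 0.14) and the difference 1.34.

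P3h2, a collagen prolyl hydroxylase (chr16:25960323-26105784, minus strand), had 2.02 to 2.29 FPKM in the mice of week 4 and 9.60, 12.1, 13.7 and 12.0 at week 24. Its weekly means of 2.19, 3.23, 5.48, 8.14, 8.41 and 11.8 rose at every step, with a trend of 2.00 ± 0.11 (adjusted p = 1.6e-12) against 0.49 in CD islets. Slc35f4, a solute carrier family member, went from 0.328 ± 0.116 to 5.50 ± 0.277 FPKM, and Cpne4, a copine, from 0.820 ± 0.154 to 7.14 ± 1.04. Vstm2a rose from 0.163 ± 0.0506 to 2.24 ± 0.769 FPKM and stayed between 0.165 and 0.220 in the CD means. Lmo1 (trend 1.93), Pcp4 (1.85), Smoc1 (1.62), Crmp1 (1.50), the Notch ligand gene Dll4 (1.34), Lin7a (1.29) and Foxp2 (0.99) rose as well. Of 32 genes analysed here from those the study singled out in islets, 28 rose and 2 fell in HFD islets, 17 rose and 4 fell on chow (all genes there: 25.5% and 11.2%), and 26 rose further in HFD than in CD islets (all genes: 4.56%). That list was chosen by the study on these samples, so its count is not independent evidence of direction. Of the 32, 10 reached 1 FPKM in no library of week 4 and so entered the test through later weeks. In mouse 1 of week 20 these genes were low for the week, with 3.20 FPKM of Cpne4 against 6.41 to 7.21 and 1.74 of Slc35f4 against 3.52 to 5.28.

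Barhl1, a homeobox gene, rose in both diets. In HFD islets it was 0.32, 0.59, 0.66 and 0.70 FPKM at week 4, 3.43, 3.42, 2.74 and 2.71 at week 16 and 7.70, 4.60, 5.64 and 6.31 at week 24. With no library of week 4 at 1 FPKM, it entered the HFD test through later weeks. The CD means rose from 0.640 to 3.71 FPKM. The trends were 2.35 and 1.66, and their difference of 0.69 passed the test (adjusted p = 0.012). Snhg11, a long noncoding RNA host gene, went up and down between collections in both diets: its HFD means were 1.16, 7.38, 0.970, 11.8, 11.8 and 15.0 FPKM and its CD means 2.24, 8.25, 1.64, 13.2, 12.7 and 13.7. Its HFD trend of 2.74 is called with mice as units (adjusted p = 2.3e-13) and not with weekly means (0.34). Prss23, a serine protease gene, rose from 6.99 ± 1.37 to 21.3 ± 3.64 FPKM, with a CD trend of -0.07 and a difference of 1.40 (adjusted p = 0.0020). Over all genes tested, the weekly means rose at every step in 84 and fell at every step in 30 of 12014, and in CD islets in 20 and 11 of 12378.

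**Figure D2:**
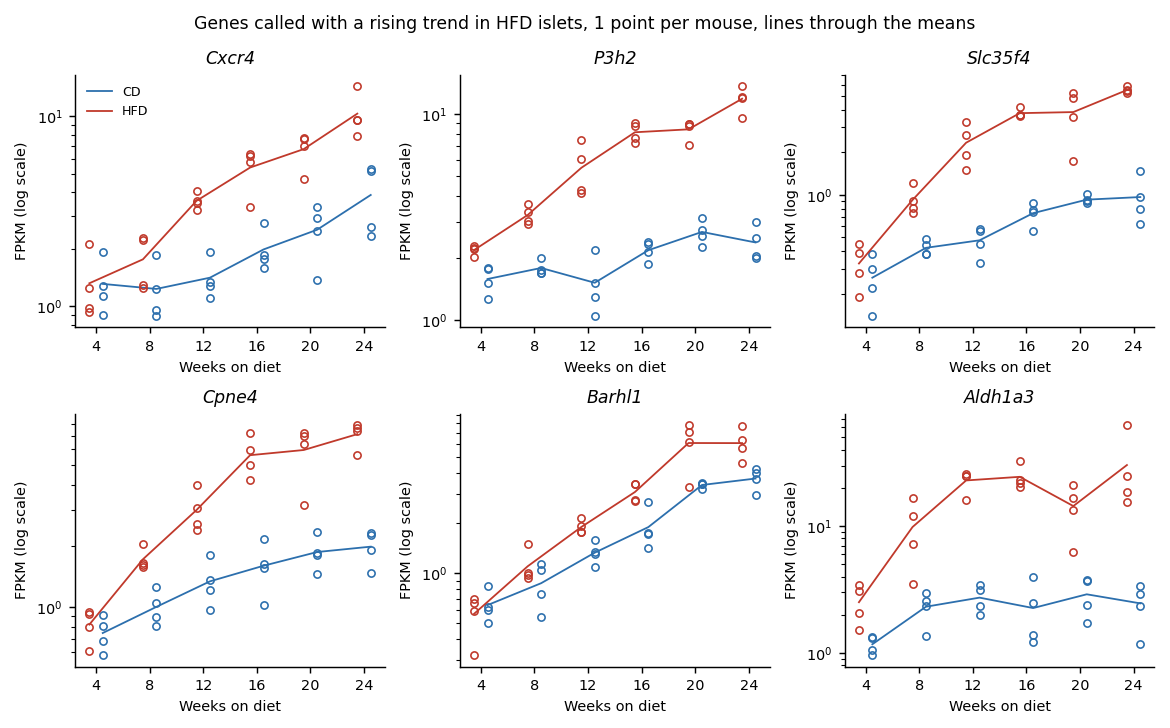
FPKM of 6 genes called with a rising trend in HFD islets (log scale) against weeks on diet, with 1 circle per mouse and lines through the weekly means. Cxcr4 and P3h2 reached 10.3 and 11.8 FPKM at week 24 of the HFD against 3.85 and 2.38 on chow, and the Aldh1a3 mean was already 22.9 FPKM at week 12.

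Cholesterol synthesis genes fell together. This pathway turns acetyl-CoA into sterols and is switched on by the factor SREBP2 (Srebf2) when sterols are scarce. Of 20 genes tested 19 fell and none rose in HFD islets (list median -0.56; all genes: 7.77% and 47.0%), and 1 fell on chow (median -0.05; all genes: 11.2%). Fdps, farnesyl diphosphate synthase, was 40.8, 35.5, 39.0 and 27.7 FPKM at week 4, 72.2, 48.0, 45.2 and 29.5 at week 8 and 21.1, 20.0, 21.9 and 19.2 at week 24. Every mouse of week 24 was below every mouse of weeks 4, 8 and 12. Its trend was -0.97 ± 0.18 (adjusted p = 0.00013) and differed by -0.91 from that of CD islets (adjusted p = 0.012). Cyp51 (-0.78), Msmo1 (-0.73), Idi1 (-0.89), Insig1 (-0.82), Sqle (-0.43) and Srebf2 (-0.49) fell too, and Sc5d did not pass (-0.16, adjusted p = 0.11).

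Weekly levels of the list were also taken as log2(weekly mean FPKM + 1), with the log after averaging the mice, unlike in the trend. Their median relative to week 4 was 0.30 at week 8, -0.20 at week 12 and -0.42 at week 24 in HFD islets. Week 8 was thus the highest, and in CD islets the median was 0.12, -0.15 and -0.12. A difference between the diets was called for 4 of the 20 genes (all genes: 1.19% lower), Cyp51 and Msmo1 among them. It was called for 14 with median ratio scaling (all genes: 1.72% lower), for 3 with insulin left out of the total and for none with weekly means as units. With weekly means as units none of the 20 was called in the trend, so the call rests on the spread between mice of a week. Hmgcs1, which makes HMG-CoA, fell by 0.59 (adjusted p = 0.0098), from 16.7 ± 4.14 FPKM at week 4 to 13.2 ± 0.598 at week 24 with 28.3 ± 12 at week 8. Its promoter (chr13:119690101-119690400, plus strand, RefSeq GRCm38.p6) is shown with a sterol regulatory element, TCACCCCAC, in capitals.
Hmgcs1: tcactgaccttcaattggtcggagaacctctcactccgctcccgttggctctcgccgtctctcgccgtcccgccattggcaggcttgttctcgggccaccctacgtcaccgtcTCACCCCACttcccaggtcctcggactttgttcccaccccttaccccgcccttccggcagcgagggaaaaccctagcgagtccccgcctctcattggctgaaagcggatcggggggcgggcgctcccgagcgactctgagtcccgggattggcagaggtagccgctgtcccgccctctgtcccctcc
The element begins 137 bases before the start. It is in 0.551% of all promoters on either strand, and 1 of the 13 cholesterol genes with a promoter in the table, Hmgcs1, holds these exact letters.

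Fatty acid genes moved in both directions. Of 36 tested 13 rose and 6 fell (all genes: 47.0% and 7.77%), and with median ratio scaling 6 rose and 11 fell. The genes named here kept their calls under that scaling. Genes of uptake and storage were among the rises: Cd36, a fatty acid transporter, went from 2.65 ± 0.656 to 7.54 ± 2.54 FPKM, the carrier Fabp4 from 15.1 ± 3.97 to 61.0 ± 15.4, the lipid droplet protein gene Plin2 from 8.92 ± 1.66 to 16.0 ± 2.47 and Angptl4, an inhibitor of lipoprotein lipase, from 0.802 ± 0.477 to 2.35 ± 0.659. Pparg, the nuclear receptor that activates several of these genes, rose by 0.65. Genes of synthesis and desaturation were among the falls: Scd1 from 1.38 ± 0.451 to 0.385 ± 0.11 FPKM, Scd2 from 26.5 ± 5.5 to 14.6 ± 1.28 and Fasn, fatty acid synthase, by 0.31. Scd1 reached 1 FPKM in no library of week 24 and so entered the HFD test through the earlier weeks. Pdk4, the kinase that turns off pyruvate dehydrogenase, fell from 3.56 ± 0.63 to 1.30 ± 0.429 FPKM. Between the diets Cd36 (0.98, adjusted p = 0.0099), Scd1 (-0.97, adjusted p = 0.0023) and Pdk4 (-1.30, adjusted p = 0.0038) differed, and Fabp4 did not pass (0.86, adjusted p = 0.11). Fabp4 was the single member called with weekly means as units in the HFD trend. Adipocytes also express Cd36, Fabp4 and Plin2, and the 7 adipocyte markers summed to 0.02 to 1.55 FPKM in the HFD libraries.

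Genes of the integrated stress response, which slows translation and switches on amino acid metabolism, rose late. Of 19 tested 13 rose and none fell in the HFD trend (all genes: 47.0% and 7.77%), and 8 rose with median ratio scaling (25.4%). On chow 3 rose (25.5%), and between weeks 24 and 4 of the HFD 4 were called higher (32.4%), both below the share of all genes. The list median relative to week 4, again of log2(weekly mean FPKM + 1), was -0.05, -0.07 and -0.12 at weeks 8, 12 and 16. It was then 0.58 and 0.42 at weeks 20 and 24. In CD islets it was 0.17 and 0.06 at those last weeks. Chac1, which degrades glutathione, was 26.8, 16.2, 9.43 and 8.34 FPKM at week 4, 33.1, 42.6, 30.8 and 18.3 at week 20 and 20.6, 38.9, 16.7 and 28.1 at week 24, and these groups overlapped (trend 1.08, adjusted p = 0.0075). Trib3 (1.02), Ddit3, encoding CHOP (0.64), Shmt2 (0.65) and Vldlr (0.97) rose, and Atf4 itself had a trend of 0.26 (adjusted p = 0.45). Nupr1, a stress-induced nuclear protein, rose from 64.0 ± 10.7 to 240 ± 117 FPKM with a like trend on chow (1.31 against 1.25). Sesn2 differed between the diets (0.62, adjusted p = 0.027), the single member called there, and was not called with median ratio scaling or with insulin left out of the total. No gene of the list was called with weekly means as units.

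Immediate early genes, which respond within minutes to calcium and growth signals, were lowest in the middle weeks of both diets. Fos was 144, 99.9, 38.6 and 146 FPKM at week 4, 1.47 to 8.95 in the mice of week 16 and 37.0, 40.4, 15.2 and 36.9 at week 24. The HFD means were 107, 14.9, 5.71, 4.81, 44.2 and 32.4 and the CD means 96.0, 25.1, 6.03, 7.14, 33.1 and 18.2. Middle weeks lay below the ends by -3.12 for Fos (adjusted p = 8.7e-05), -2.04 for Jun, -1.97 for Egr1, -1.96 for Fosb and -1.84 for Junb. In all, 11 of 15 listed genes were lower in the middle (all genes: 9.49%). No gene of any kind had a middle-week pattern that differed between the diets by limma (0 called; 1049 at an unadjusted p under 0.05).

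**Figure D3:**
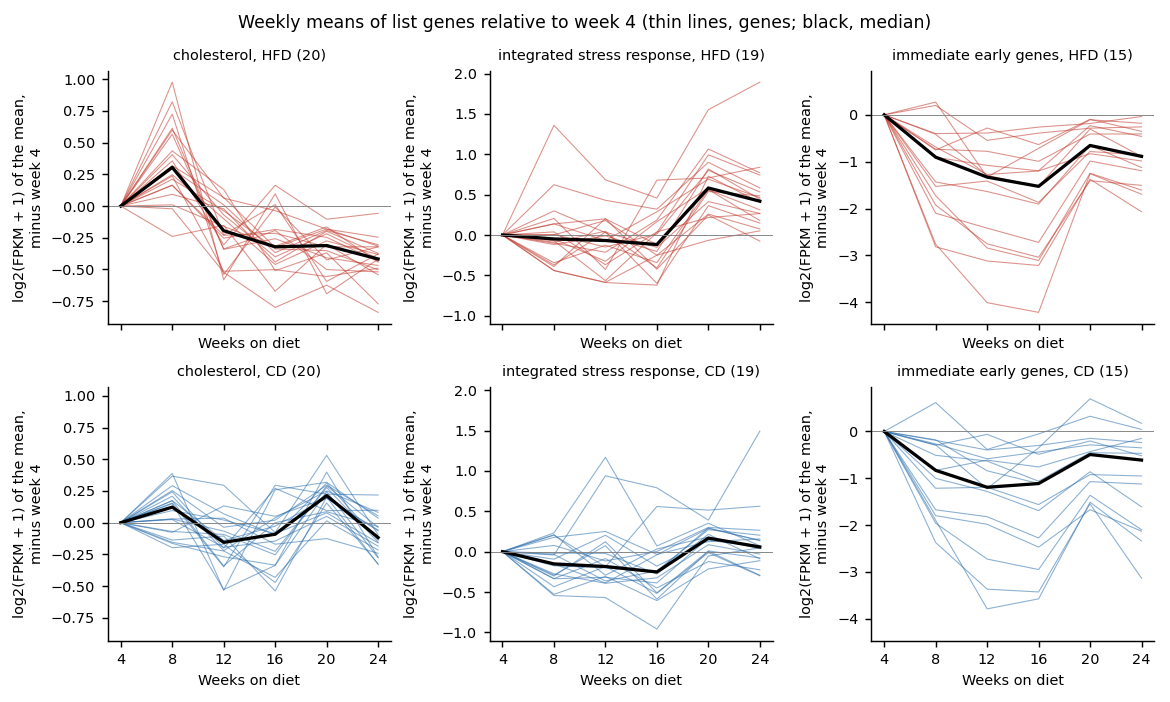
Values of log2(weekly mean FPKM + 1) relative to week 4 against weeks on diet for genes of 3 lists. Thin lines are genes and the black line is their median, with HFD above and CD below. The cholesterol median in HFD islets was 0.30 at week 8 and -0.42 at week 24, the stress response median 0.58 at week 20, and the immediate early median lowest at -1.53 in week 16.

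The Reg family and the metallothioneins rose with wide spread. Reg genes encode secreted lectin-like proteins made mainly by acinar cells. Reg2 was 2.55, 7.08, 6.29 and 7.94 FPKM at week 4, 0.99, 96.3, 14.7 and 4.35 at week 8 and 262, 1365, 223 and 25.3 at week 24. All week 24 mice lay above all week 4 mice, yet values within week 8 ran from 0.99 to 96.3. The trend was 4.25 ± 0.98 (adjusted p = 0.0014) in HFD and 3.65 (adjusted p = 0.0010) in CD islets, and the difference was not called (0.61, adjusted p = 0.80). Of 6 Reg genes tested 5 rose (all genes: 47.0%), and none differed between the diets. Of the 6, 2 reached 1 FPKM in no library of week 4 and so entered the test through later weeks. Of all 7 Reg genes with values, 6 had a higher mean at week 24 than at week 4 (all genes with values: 52.0%). The Reg genes are close copies whose reads may be shared. The summed acinar markers were 7786 to 20480 FPKM at week 4, 5382 to 64260 at week 8 and 21649 to 44458 at week 24, with 2 of 23 called higher in the trend (all genes: 47.0%). The part of acinar RNA in the Reg values was not tested. Mt2, a metal-binding protein gene, was 117, 45.1, 35.1 and 95.4 FPKM at week 4 and 198, 245, 552 and 313 at week 24 (trend 2.86, adjusted p = 1.0e-05), and Mt1 rose by 2.32. On chow Mt2 had means of 112 and 203 at these weeks, and the difference was 1.61 (adjusted p = 0.060).

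Several vessel, pericyte and matrix genes parted between the diets. Of 10 endothelial markers 5 rose and none fell in the HFD trend, near the 47.0% and 7.77% of all genes, while 4 fell on chow (11.2%) and 3 differed between the diets (4.56% higher); with median ratio scaling 2 rose and 2 fell in HFD islets and the same number, 3, differed. Robo4, a guidance receptor of endothelium, rose by 0.54 and differed by 0.77, and Cdh5, the cadherin of endothelial junctions, rose by 0.33 and differed by 0.68. Pdgfrb, the receptor that marks pericytes, was 2.82, 4.72, 4.09 and 4.91 FPKM at week 4 and 5.17, 7.90, 7.08 and 4.56 at week 24, which overlap. Its trend was 0.49 (adjusted p = 0.0014) in HFD and -0.43 (adjusted p = 0.0028) in CD islets, a difference of 0.91 (adjusted p = 0.00014) that also passed with weekly means (adjusted p = 0.0099). Rgs5, another pericyte marker, rose from 25.7 ± 0.855 to 48.2 ± 9.31 FPKM with a difference of 0.58 that was not called with insulin left out of the total. Of 21 matrix and collagen genes 1 rose and 4 fell in HFD islets (all genes: 47.0% and 7.77%) while 20 of 23 fell on chow (11.2%). Of these genes 5 differed, all higher in HFD islets (4.56%), and 2 did with median ratio scaling and 1 with insulin left out of the total. Thbs1, thrombospondin, was the member that rose (5.18 ± 1.7 to 13.0 ± 3.27 FPKM). The basement membrane collagens Col4a1 and Col4a2 had trends of 0.10 and -0.15 in HFD and -0.49 and -0.77 in CD islets. Sparc, a matrix glycoprotein, fell by 0.32 in HFD islets against a CD trend of -0.99. The differences of Col4a1 and Sparc were among those lost with insulin left out. Igfbp3, which binds insulin-like growth factors, was 33.6 to 37.3 FPKM in the mice of week 4 and 88.1, 198, 95.8 and 83.1 at week 24 (trend 1.60, difference 1.14, adjusted p = 0.00016).

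Proliferation genes were mostly of low level. Of 40 listed cell cycle genes, tested or not, 36 had a lower mean at week 24 than at week 4 (all genes with values: 35.8%). In the 25 tested, 13 falls and 1 rise were called, but 7 of the 25 reached 1 FPKM in no library of week 24 and so entered the test through earlier weeks, which makes this count no support for a fall of the list. The fit of both diets, with a filter of the same kind, called 21 falls in HFD islets and 28 on chow among 35 genes. The shares of all genes there were 8.67% and 11.2%, and the list medians were -0.357 and -0.599. No member fell further in HFD islets, and 1 had the higher trend there. Among abundant members Ccnd1 and Ccnd2, cyclins of the entry into the cycle, fell by 0.59 and 0.36, whereas Pcna, the DNA polymerase clamp, had a trend of 0.01 (adjusted p = 0.92) that became a called fall with median ratio scaling (-0.18, adjusted p = 0.016). Mki67, a marker of cycling cells, did not reach the level needed for the HFD test: it was 0.73, 0.62, 0.79 and 0.28 FPKM at week 4, 2.78, 1.87, 1.03 and 0.61 at week 8 and 0.06, 0.19, 0.18 and 0.10 at week 24. Top2a, a DNA topoisomerase of dividing cells, went from 1.18 ± 0.401 to 1.94 ± 1.13 at week 8 and 0.138 ± 0.0465 at week 24 (trend -1.13), and was among the genes tested through the early weeks. Its CD trend was -1.34 and the difference 0.21 (adjusted p = 0.78). Stmn1, stathmin, fell by 1.19. Among 15 cell cycle inhibitors and senescence genes 7 rose and 1 fell, a share near that of all genes (47.0% and 7.77%). Cdkn2a, which encodes p16 and p19, rose from 0.705 ± 0.166 to 1.52 ± 0.449 FPKM, Cdkn1b (p27) by 0.42 and Cdkn2c (p18) by 0.61, and the last exceeded the CD trend by 0.94 (adjusted p = 0.0088). Cdkn2a reached 1 FPKM in no library of week 4 and so entered the test through later weeks. Bmi1, a Polycomb gene that represses Cdkn2a, rose from 15.2 ± 0.643 to 31.7 ± 1.45 FPKM, and its CD trend was 0.78.

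For the remaining lists the shares of all genes are again 47.0% risen and 7.77% fallen, and 4.56% risen further than on chow. Among 17 interferon-stimulated and chemokine genes 10 rose and 1 fell, and 5 rose further than on chow, Ifi44 (0.58), Usp18 (0.63) and Ifi27 (0.42) with Cxcr4 and Ackr3, of which Ifi27 was not called with median ratio scaling. The respiratory chain list of 37 had 1 rise and 12 falls, the 26 ribosomal protein genes 0 and 8, the 28 proteasome genes 4 and 6, the 24 unfolded protein response genes 2 and 8 and the 22 citrate cycle genes 4 and 5. With median ratio scaling 30 respiratory chain and 16 ribosomal protein genes fell (all genes: 22.1%). Of 23 antioxidant genes 8 rose and 7 fell, of 22 insulin signaling genes 10 and 2, of 17 clock genes 7 and 0 (the output gene Ciart by 0.66 and Per3 by 0.92 among them), and of 18 receptor genes 6 and 4. Grb10, an adaptor that restrains insulin and IGF1 receptors, fell from 7.05 ± 0.177 to 4.14 ± 1.01 FPKM and differed by -0.81 from CD islets (adjusted p = 0.00061). Of 9 ductal markers 2 rose and 4 fell, of 9 stromal markers 3 and 2, of 11 macrophage markers 3 and 1, and of 5 blood genes 4 and 0, none of which was called with median ratio scaling. Of 6 Schwann cell and nerve genes 3 were tested and rose. The other 3 were lower at week 24 than at week 4: the mean of Sox10 went from 0.805 to 0.158 FPKM, that of S100b from 0.412 to 0.145 and that of Gfap from 0.172 to 0.02, and the fit of both diets, whose filter Sox10 passed, called its fall. Neither of the 2 B cell markers tested was called, and no T cell, lymph node stroma or adipocyte marker reached the level for testing in HFD islets. In the fit of both diets the T cell marker Lck and 2 lymph node stroma markers passed the filter. Lck reached 1 FPKM in CD libraries only, and its trend differed by -0.709 between the diets. That call was lost with median ratio scaling, and its entry through CD libraries makes it no support for a difference. Neither lymph node stroma marker was called.

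**Figure D4:**
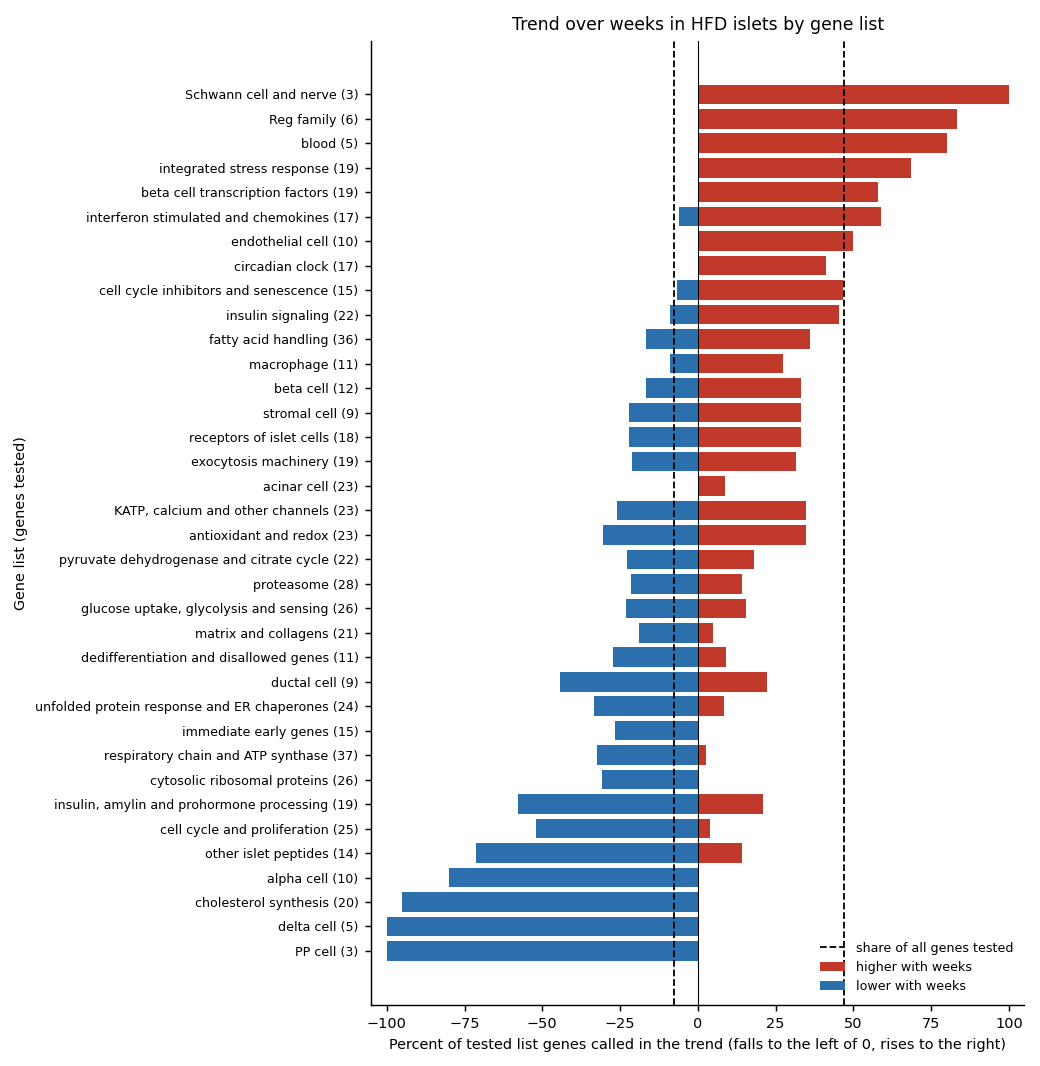
Percent of the tested genes of a list that were called in the HFD trend, rises to the right of 0 and falls to the left. The number tested is in brackets, and dashed lines mark the shares of all 12014 genes (47.0% and 7.77%). Lists with very few tested genes and the genes that the study singled out are not drawn. PP, delta and alpha cell markers and cholesterol synthesis lie farthest to the left.

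The time course did not advance evenly. Between neighbouring weeks 3733, 6195, 6729, 4270 and 433 genes were called in HFD islets (31.1%, 51.6%, 56.0%, 35.5% and 3.6%), the first 4 steps being much the larger. From week 4 to 8, 1718 rose (14.3%) and 2015 fell (16.8%). From week 8 to 12, 2795 rose (23.3%) and 3400 fell (28.3%). From week 12 to 16, 4291 rose (35.7%) and 2438 fell (20.3%), and from week 16 to 20, 3269 (27.2%) and 1001 (8.33%). From week 20 to 24, 52 rose (0.433%) and 381 fell (3.17%). In CD islets 20.9% of genes rose and 10.1% fell from week 4 to 8, 12.5% and 37.2% from week 8 to 12, 34.9% and 17.4% from week 12 to 16, 30.1% and 9.18% from week 16 to 20, and 1.03% and 20.0% from week 20 to 24. Across 12378 genes the HFD and CD steps correlated at 0.69, 0.836, 0.945, 0.665 and 0.328, as a description over genes that share libraries and are not replicates. A step that differed between the diets was found mainly from week 8 to 12, with 194 genes higher and 39 lower in HFD islets. The other steps gave 3 from week 4 to 8, 1 from week 12 to 16 and 0 in each of the last 2 by limma, where 919 and 1534 genes had an unadjusted p under 0.05. Prss3, a trypsinogen gene, jumped from 14.3 ± 7.38 FPKM at week 8 to 674 ± 445 at week 12 and back to 28.4 ± 33 at week 16, and its CD means were 10.9, 1353 and 67.2. H2-D1, a class I histocompatibility gene, also peaked at week 12 in both diets (40.9 and 45.1 FPKM). Pdyn, the prodynorphin gene, did so in HFD islets, with 49.5 ± 11.7 FPKM against 10.5 on chow. Spp1, osteopontin, was among the largest rises of the last step, from 27.0 ± 5.08 to 67.5 ± 31.2 FPKM.

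**Figure D5:**
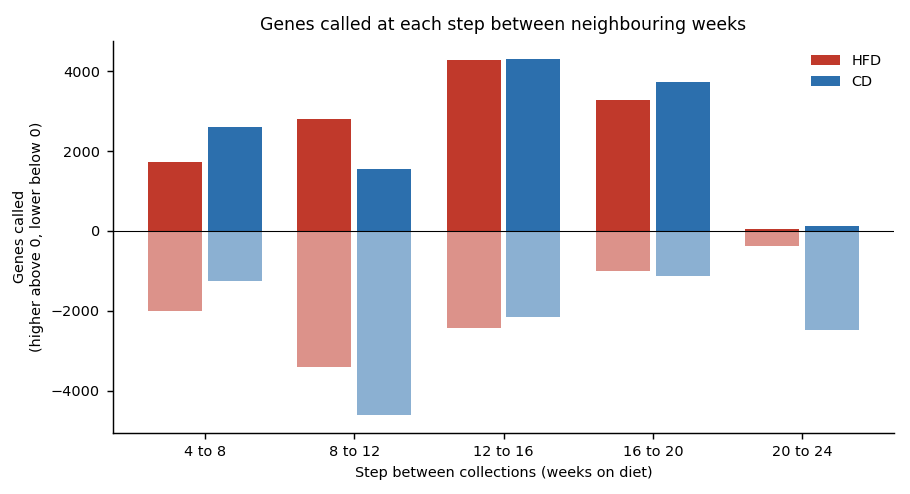
Number of genes called at each step between neighbouring weeks, HFD in red and CD in blue, with rises above 0 and falls below in a paler shade. The step from week 12 to 16 had the most calls in HFD islets (4291 and 2438) and the step from week 20 to 24 the fewest (52 and 381).

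Set against CD islets over the whole course, 565 genes rose further (4.56%) and 147 fell further (1.19%) in HFD islets, and for weeks 24 and 4 alone 253 (2.04%) and 81 (0.654%) did. With median ratio scaling the trend split was 210 higher (1.7%) and 213 lower (1.72%). Of 5897 rises (47.6%) and 1073 falls (8.67%) of HFD islets in the fit of both diets, 2915 and 631 were also called on chow in the same direction. With weekly means as units 85 genes rose (0.687%) and 47 fell (0.38%) further in HFD islets, 79 and 43 of them called in the first fit. Leaving out mouse 1 of week 20 gave 1181 genes in place of 712 (5.75%), and leaving out mouse 3 of week 24 gave 465.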

How the data were processed

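Islet RNA was captured by poly(A), primed with random hexamers and sequenced on BGISEQ-500. Per the submitters' processing notes, HISAT2 2.0.4, Bowtie2 2.2.5, RSEM 1.1.12, DESeq2 and the build GRCm38.p5 were used; the deposited FPKM values are normalised by the authors to transcript length and library total, so a gene's FPKM depends on the share insulin takes. The authors' own fold change, p-value and cluster columns of the table were not used. Of 21990 genes listed, 20155 had values. Symbols came from the RefSeq table of GRCm38.p6, which held 21823 of the IDs; promoters came from the same build. Genes that reached 1 FPKM in 4 libraries or more were tested on log2(FPKM + 1) with limma 3.58.1 in R 4.3.3 (mean-variance trend, robust variances, Benjamini-Hochberg adjustment over all genes tested). The HFD fit held 24 libraries and 1 mean per week (18 residual degrees of freedom). The comparison with chow held 48 libraries in 12 groups of diet and week (36 residual degrees of freedom). Replicates were separate mice. A gene was called at an adjusted p under 0.05; no test was made on a list, and the shares of all genes called are given with the counts of called members. The fits were tested on simulated data. The text names genes of the lists, the 12 largest rises and 12 largest falls called in both the trend and week 24 against week 4, and the 3 or 6 largest per direction of the other contrasts. Members and lists were chosen with earlier results of these data known. Cell type marker sums are given in FPKM without a test. The alternatives were other scalings, filters, pseudocounts and variance models, weekly means as units, week as a number and leaving out each library. Read depth is unknown from FPKM. Python 3.11.15, pandas 2.3.3, numpy 2.4.6 and matplotlib 3.10.9 made the summaries and figures. A few genes of the lists enter the counts but their own values are not reported here.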

Additional observations from a re-analysis of the deposited data

Results flagged for a closer look

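In 24 genes whose HFD values were read mouse by mouse, 144 groups of 4 mice were checked for a mouse far from the other 3 of its week, and in 16 the gap to the nearest mouse, relative to the range of the group, exceeded the 95% critical value of Dixon, which chance gives in about 1 in 20 groups. Mouse 1 of week 20 gave 5 of them: Gcg (4630.19 FPKM), Gpx3 (88.35) and Fdps (42.24) were high, and P3h2 (7.03) and Pdgfrb (3.66) were low. A single mouse was high for Sst at week 16 (1106.8 FPKM) and week 24 (615.38), Rbp4 at week 4 (80.58), Barhl1 at week 8 (1.49), Reg2 at week 8 (96.28), Txnip at week 4 (682.44) and Igfbp3 at weeks 16 (66.51) and 24 (198.19). A single mouse was low for Ins2 at week 8 (452682.4 FPKM), Aldh1a3 at week 12 (16.18) and Fos at week 24 (15.19).

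The trend over weeks differed between HFD and CD islets, by the limma test of the difference itself, in 712 genes, and week 24 against week 4 differed in 334. Of 148 genes named in the text and tested, 61 differed, given here as the HFD trend minus the CD trend on the log2(FPKM + 1) scale. Those with the larger HFD trend were Aldh1a3 (1.88), Slc35f4 (1.59), P3h2 (1.5), Vstm2a (1.47), Cpne4 (1.41), Prss23 (1.4), Ackr3 (1.34), Lmo1 (1.31), Cxcr4 (1.28), Smoc1 (1.27), Lin7a (1.2) and Igfbp3 (1.14). Smaller positive differences were called for Crmp1 (1.03), Dll4 (0.997), Cd36 (0.984), Cdkn2c (0.944), Pdgfrb (0.911), Mlxipl (0.797), Robo4 (0.773), Barhl1 (0.687), Cdh5 (0.675), Sparc (0.669), Usp18 (0.632) and Sesn2 (0.625). The smallest positive ones were Col4a2 (0.62), Col4a1 (0.598), Ifi44 (0.582), Rgs5 (0.576), Foxp2 (0.57), Ifi27 (0.424), Pax6 (0.374), Pcna (0.349) and Bmi1 (0.34). The lowest differences were found for Gcg (-2.75), Msln (-2.49), Sst (-2.48), Pyy (-2.42), Rbp4 (-2.4), Ppy (-2.12), Gpx3 (-1.96), Npy (-1.9), Irx1 (-1.66), Eef1a2 (-1.55), Hhex (-1.55) and Fev (-1.48). Further negative differences were called for Tspan8 (-1.48), Irx2 (-1.41), Ffar4 (-1.36), Ghrl (-1.33), Pdk4 (-1.3), Arg1 (-1.3), Ttr (-1.26), Sfrp5 (-1.24), Scd1 (-0.973) and Fdps (-0.911). The remaining negative ones were Cyp51 (-0.879), Grb10 (-0.808), Msmo1 (-0.785), Ghsr (-0.68), Pcsk1 (-0.392) and Cpe (-0.27).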

How the results depend on the processing

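The split of the HFD trend was 5644 higher against 934 lower as reported, 4934 against 1005 with insulin left out of the total and 3047 against 2651 with median ratio scaling. More genes were lower than higher in 4 cases where the reported majority was higher: the steps (11897 against 12058) and the difference of the trend (210 against 213) with median ratio scaling, and the differences of the trend (28 against 44) and of week 24 against week 4 (34 against 37) with a log2 change of at least 1. The trend over weeks in HFD islets (6578 genes) became 4003 with week as a number, 58 with weekly means as units and 247 with a log2 change of at least 1. With that minimum, week 24 against week 4 in HFD islets gave 267 in place of 5111, any difference between weeks in HFD islets 1138 in place of 9775, middle weeks against ends in HFD islets 21 in place of 1504 and steps between neighbouring weeks in HFD islets 1182 in place of 21360. The difference of the trend between HFD and CD islets (712) became 402 with a filter of 5 FPKM, 314 with insulin left out of the total, 423 with median ratio scaling, 132 with weekly means as units and 72 with a log2 change of at least 1. The difference of week 24 against week 4 between HFD and CD islets (334) became 135 with a filter of 5 FPKM, 212 with insulin left out and 71 with a log2 change of at least 1. A stricter filter tested fewer genes and the log2 minimum removed small changes; for the other settings the cause was not tested. Leaving out 1 library at a time gave 5742 to 6788 for the trend, 4178 to 5224 for week 24 against week 4, 9347 to 9953 for any difference and 19785 to 22609 for the steps. Middle weeks against ends ranged from 894 (without mouse 2 of HFD week 4) to 2452 (without mouse 1 of that week). The difference of the trend ranged from 465 (without mouse 3 of HFD week 24) to 1181 (without mouse 1 of HFD week 20). The difference of week 24 against week 4 ranged from 202 (without mouse 3 of HFD week 24) to 425, and was 217 without mouse 2 of HFD week 24, 212 without mouse 4 of CD week 24 and 222 without mouse 2 of CD week 4. Among values of single genes, the trends of Slc30a8, from 0.18 to -0.01587, and of Pcna, from 0.01 to -0.1753, reversed with median ratio scaling. Under some setting 158 trend values of single genes lost and 22 gained the call. A further 4464 kept the same status, whether called or not called. No paired analysis was possible because each week and diet was sampled from different mice and replicate numbers follow accession order only. Within HFD islets the week, the age and the collection cannot be told apart, the read depth behind a value is unknown, and bulk islets do not separate cell number from RNA per cell.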

Other observations

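Mice of a week differed in some genes far more than in most. Across 5349 genes tested with a mean of at least 10 FPKM in HFD islets, the median spread within weeks (pooled SD of log2(FPKM + 1)) was 0.123 in HFD and 0.116 in CD islets. Txnip, which encodes a thioredoxin-binding protein induced by glucose, ranked 4 in HFD islets with a spread of 1.38, against 0.754 on chow. Its HFD values were 85.6, 73.9, 73.6 and 682 FPKM at week 4, 712, 1097, 124 and 558 at week 8 and 838, 409, 537 and 115 at week 12. They were 910, 88.8, 78.6 and 550 at week 16, 754, 121, 354 and 278 at week 20 and 552, 278, 154 and 87.5 at week 24. Mice of the same week differed by several-fold throughout, and the trend was 0.11 (adjusted p = 0.92). Most CD mice lay between 81.6 and 229 FPKM, with single values of 440 and 681.

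The hormone genes of delta and PP cells also had a larger pooled SD on the HFD, a difference that was not tested: it was 0.450 against 0.132 for Sst, 0.413 against 0.151 for Pyy and 0.560 against 0.236 for Ppy, which ranked 3, 7 and 14 by the ratio of the spreads. The ratio was largest for Slc11a2, a metal ion transporter chosen after its values were seen, and rested on 1 mouse: mouse 4 of week 4 had 49.9 FPKM where the other 3 had 6.74 to 10.3. The same mouse held the highest Txnip value of week 4. Mouse 2 of week 24 had the highest Aldh1a3 (62.4 FPKM), Reg2 (1365), Igfbp3 (198) and Cxcr4 (14.5) of the HFD libraries and a Trpm5 level, a cation channel gene of beta cells, of 1.77 FPKM against 28.1 to 39.2 in the other 3 mice of its week. Sfrp5, a secreted Wnt inhibitor also chosen after its values were seen, ranked 2 by the ratio (0.407 against 0.0968). Its week 20 values were 21.9, 19.4, 7.04 and 6.40 FPKM, and it fell from 45.6 ± 3.43 at week 4 to 11.2 ± 3.04 at week 24 (trend -1.99, adjusted p = 1.6e-06, limma), further than on chow (difference -1.24, adjusted p = 0.0011).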
